A study of Mus musculus with 4 samples.

Results

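The 10 genes described here, Bcl2, Bcl2l1, Mcl1, Bax, Bak1, Bcl2l11, Bbc3, Pmaip1, Bid and Bad, encode pro- and anti-apoptotic proteins of the BCL2 family. They were taken by symbol from an mRNA count table of 13815 genes, and all 10 were found there, each as 1 row with 1 RefSeq entry, so splice forms of a gene are not told apart. The mRNA libraries were made by poly(A) selection from mouse embryonic stem cells lacking Dgcr8 (dgcr8-/-) or Dicer (dicer-/-) and from WT cells, and a small RNA library covers the WT cells alone. The labels give the strain V6.5 for all of them, and every culture was grown in serum with leukaemia inhibitory factor. The labels do not describe the knockout alleles or say how many clones were used. There is 1 library for each of the 4 groups. No difference between genotypes was therefore tested, no p-value is given, and cell line and culture cannot be told apart from genotype. Intervals are 95% and cover counting error only.

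The BCL2 family controls whether the outer mitochondrial membrane is opened during apoptosis. The effectors BAX and BAK form pores in it, the anti-apoptotic proteins BCL2, BCL-XL (from Bcl2l1) and MCL1 hold them back, and the BH3-only proteins BIM (Bcl2l11), PUMA (Bbc3), NOXA (Pmaip1), BID and BAD tip this balance by binding to the other members. Pluripotent stem cells are known for a low threshold for mitochondrial apoptosis. DGCR8, with Drosha, releases the hairpin precursors of miRNAs in the nucleus, and Dicer cuts them into mature miRNAs, which repress mRNAs by pairing through their seed. Bcl2l11 is a textbook target of the miR-17~92 cluster.

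Summed over the mRNA table, WT had 9931625 counts, Dgcr8-/- cells 11123498 and Dicer-/- cells 12309100. Values are given as counts divided by this sum, times 1e6 (CPM). They carry no transcript length, so levels are compared within a gene and not between genes. Dgcr8 had 52.7 CPM in WT, 20.9 in Dgcr8-/- and 84.7 in Dicer-/- cells, and Dicer1 had 79.9, 127.6 and 20.1 CPM, so each targeted gene was lowest in the library labelled as its knockout and neither was at 0. All 12 embryonic stem cell markers were at 30.0 CPM or more in every library, but their levels were not alike. They summed to 12211 CPM in WT, 8240 in Dgcr8-/- and 8732 in Dicer-/- cells. In the same order, Dppa5a, the largest part of each sum, had 5564, 2715 and 4222 CPM, and Tdgf1 had 1486, 471.3 and 421.2. Klf4 had 429.7, 103.2 and 76.9 CPM and Lin28a 151.3, 30.0 and 44.8, and Pou5f1 and Zfp42 were also highest in WT. Fgf4 (177.9, 415.6 and 367.0), Sox2 (382.0, 523.2 and 532.3) and Sall4 (140.8, 203.0 and 183.4) were above WT beyond counting error in both knockouts. Nanog, Esrrb and Utf1 were highest in Dgcr8-/- cells. Of 7 feeder fibroblast markers, 2 had a row (Col1a1 and Thy1), and their sum was 27.4 CPM in WT, 2.61 in Dgcr8-/- and 1.71 in Dicer-/- cells. The 4 neural markers summed to 145.6, 224.7 and 189.4 CPM. Tubb3 made up most of each sum, and Pax6 had 2, 66 and 189 counts. The part of these marker differences in the values below was not tested. In bulk RNA fewer cells of a type cannot be told apart from less RNA per cell.

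Among the 10 genes, the BH3-only gene Bcl2l11 and the anti-apoptotic gene Bcl2l1 stood highest above WT in the Dicer knockout. In the Dgcr8 knockout, Bcl2l11 and the effector gene Bak1 did. A gene entered a comparison where either of its 2 libraries reached 1 CPM, and was called higher or lower at a ratio of 2-fold or more on the log2(CPM + 1) scale. Bcl2 stayed below 1 CPM in all 3 libraries, so 9 members entered. In the Dgcr8 knockout 1 of 9 was called higher than WT (Bcl2l11) and 0 lower, where 14.3% of all 13223 genes were called higher and 8.02% lower (22.3% in all). In the Dicer knockout 2 of 9 were called higher (Bcl2l11 and Bcl2l1) and 0 lower, where 16.0% of 13403 genes were called higher and 9.70% lower (25.7% in all). These shares of members, 11.1% and 22.2%, lie near those of all genes. The median log2 ratio of the 9 was 0.09 in the Dgcr8 and 0.22 in the Dicer knockout, against 0.11 and 0.10 for all genes.

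The scaling matters for these calls. Median-ratio and TMM scaling moved the median of all genes by -0.13 and -0.11 in the Dgcr8 knockout, and by -0.11 and -0.10 in the Dicer knockout. Genes called higher then made up 53.6% and 55.4% of all calls in the Dgcr8 knockout, where total-count scaling gave 64.1%. Relative to the median of all genes, Bcl2l11 was at 0.98 in Dgcr8-/- and at 1.45 in Dicer-/- cells on the log2 scale, and Bcl2l1 at 0.64 and 1.03.

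**Figure D1:**
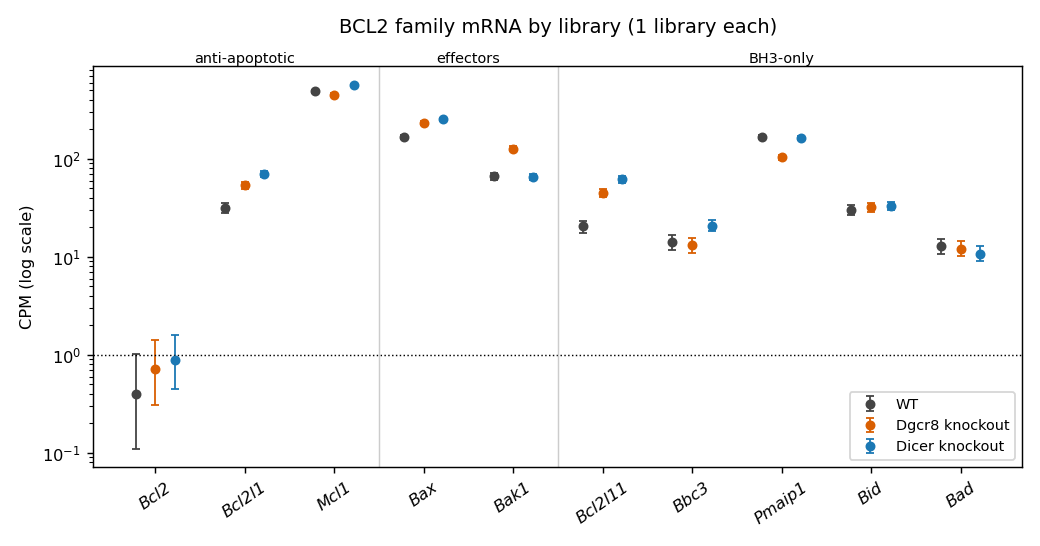
CPM of the 10 genes on a log axis in the WT, Dgcr8 knockout and Dicer knockout libraries (1 library each). Points are the measured values, bars the exact 95% counting intervals, and the dotted line marks 1 CPM. Bcl2l11, Bcl2l1 and Bax step up from WT to the Dgcr8 to the Dicer knockout, Bak1 stands out in the Dgcr8 knockout, and Bcl2 lies below the line in all 3.

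Of the 5 BH3-only genes among the 10, Bcl2l11 differed most from WT in both knockouts. It encodes BIM, which binds all the anti-apoptotic members and can activate BAX and BAK. Its counts were 203 in WT, 499 in Dgcr8-/- and 759 in Dicer-/- cells, or 20.4, 44.9 and 61.7 CPM. The 3 counting intervals do not overlap, and WT is the lowest library. The level was 2.19-fold that of WT in Dgcr8-/- (1.86 to 2.60) and 3.02-fold in Dicer-/- cells (2.58 to 3.54). The first of these sits close to the 2-fold rule: its log2 ratio was 1.10, and 0.96 with median-ratio scaling, 0.99 with TMM and 0.97 with a pseudocount of 5 CPM, where it was no longer called. The call in the Dicer knockout, at 1.55, held at 1.44 and 1.45 with both other scalings.

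Bbc3 encodes PUMA, a BH3-only protein induced by p53 and by forkhead factors. It had 140 counts in WT, 146 in Dgcr8-/- and 257 in Dicer-/- cells, that is 14.1, 13.1 and 20.9 CPM. The WT and Dgcr8 knockout values overlap within counting error, and the Dicer knockout was 1.48-fold above WT (1.20 to 1.83), short of the 2-fold rule. Pmaip1 encodes NOXA, which binds MCL1. Its 1646 counts in WT, 1154 in Dgcr8-/- and 2017 in Dicer-/- cells correspond to 165.7, 103.7 and 163.9 CPM. Here the Dgcr8 knockout is the library that stands apart, 1.60-fold lower than WT (1.48 to 1.72) and 1.58-fold lower than the Dicer knockout (1.47 to 1.70). Its log2 ratio of -0.67 to WT was the lowest among the members, though not past 2-fold.

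Bid and Bad overlapped between libraries within counting error. Bid, whose product links death receptors to mitochondria once cut by caspase-8, had 300 counts in WT, 358 in Dgcr8-/- and 407 in Dicer-/- cells (30.2, 32.2 and 33.1 CPM). The ratios to WT were 1.07 (0.911 to 1.25) and 1.09 (0.941 to 1.27), and the log2 ratio of 0.09 in the Dgcr8 knockout changed sign to -0.05 and -0.02 under median-ratio and TMM scaling. Bad, whose product is held inactive by survival kinases, had 127, 135 and 133 counts (12.8, 12.1 and 10.8 CPM). Its ratios to WT were 0.949 (0.739 to 1.22) in the Dgcr8 and 0.845 (0.658 to 1.09) in the Dicer knockout, and all its intervals overlap. At these counts a difference smaller than those intervals was not detectable.

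The upstream sequences of the 2 BH3-only genes above WT in the Dicer knockout are shown because both are known targets of forkhead (FOXO) factors and both hold the forkhead core GTAAACA in a RefSeq promoter window. Capitals mark the core, which reads TGTTTAC on the opposite strand. The Bcl2l11 stretch holds the 250 bases before the first of its 2 listed starts (GRCm38.p6, chr2:128125788-128126037, plus strand), and the Bbc3 stretch 30 bases around the motif before the second of its 3 listed starts (chr7:16310083-16310112, plus strand).
Bcl2l11: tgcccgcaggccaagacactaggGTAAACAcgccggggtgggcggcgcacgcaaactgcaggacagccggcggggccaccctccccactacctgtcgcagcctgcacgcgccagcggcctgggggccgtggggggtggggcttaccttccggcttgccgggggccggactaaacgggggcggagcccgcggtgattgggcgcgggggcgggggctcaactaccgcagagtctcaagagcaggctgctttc
Bbc3: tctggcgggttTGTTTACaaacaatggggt
The core begins 227 bases before that start in Bcl2l11 and 167 bases before it in Bbc3. The search took both strands and the 250 bases before each start, and 2 of the 9 members with a window held the core: Bcl2l11 and Bbc3. It occurs in 3.17% of all 32851 windows and in windows of 3.54% of 27025 genes. The motif was chosen with these windows in view, and a match is a description, not a bound site. Of the other 2 motifs searched, the E-box CACGTG was held by 2 of the 9 members (Bax and Bbc3), by 6.02% of all windows and by 6.86% of all genes. The GC box GGGCGG was held by 7 of the 9, by 32.7% of all windows and by 35.4% of all genes. Foxo3, which encodes a forkhead factor, had 99 counts in WT, 234 in Dgcr8-/- and 136 in Dicer-/- cells, and Foxo1, which encodes another, had 380, 706 and 613. The part of either in the level of Bcl2l11 was not tested. The log2 ratio of Foxo3 in the Dgcr8 knockout was 1.01, and 0.88 and 0.90 with the other scalings, below the rule.

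The WT small RNA library shows which of the miRNAs reported for these genes the cells contained. For Bcl2l11 a list of 14 was written, from the miR-17~92, miR-106a and miR-106b~25 clusters and miR-32. Their mature sequences are shown for the miR-17~92 cluster and for the 3 most abundant others, because these fall into 4 seed groups. They are from RefSeq (GRCm38.p6), 5′ to 3′, with the seed (bases 2 to 8) in capitals.
miR-17-5p: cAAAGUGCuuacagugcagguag
miR-20a-5p: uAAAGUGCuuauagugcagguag
miR-20b-5p: cAAAGUGCucauagugcagguag
miR-18a-5p: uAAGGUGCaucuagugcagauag
miR-19a-3p: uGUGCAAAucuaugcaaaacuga
miR-19b-3p: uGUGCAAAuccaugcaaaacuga
miR-92a-3p: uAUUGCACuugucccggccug
miR-25-3p: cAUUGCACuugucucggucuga
miR-32-5p: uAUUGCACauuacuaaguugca
The 14 miRNAs together had 89982 of 2594949 reads, a share of 3.47% (3.45 to 3.49). By seed, the 4 miRNAs with AUUGCAC held 1.72% of all reads, the 6 with AAAGUGC 1.60%, the 2 with GUGCAAA 0.105% and the 2 with AAGGUGC 0.0494%. Most reads of the first group came from outside the miR-17~92 cluster: miR-25-3p had 26234 and miR-32-5p 16261, whereas miR-92a-3p had 161. In the second group miR-20b-5p of the miR-106a cluster had 14824 reads, against 1721 for miR-20a-5p and 1497 for miR-17-5p. The remaining cluster members were miR-19b-3p with 2537 reads, miR-18a-5p with 535 and miR-19a-3p with 192. All of miR-17~92 made up 0.256% of reads (0.250 to 0.262), miR-106a 0.756% and miR-106b~25 1.83%. Small RNA of the knockouts was not analysed here, so no link between a miRNA and the level of a gene was measured. Read shares also depend on how well each miRNA is ligated and amplified, which these data do not separate.

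For each other member, the listed miRNAs held a smaller share than the 3.47% of the 14 listed for Bcl2l11. The miR-16 family nonetheless held more reads than the miR-17~92 cluster (0.256%). The miR-16 family and the miR-34 family, reported for Bcl2, had 0.353% and 0.144% of reads, with miR-16-5p at 7306 reads and miR-34a-5p at 2039. For Mcl1, the miR-101 family had 0.0601% and the miR-29 family 0.0337%, and miR-193b-3p had 5 reads. Let-7, reported for Bcl2l1, is known to be held low in stem cells by LIN28, and its 8 listed members had 825 reads in all (0.0318%). For Bak1, miR-125b-5p had 709 reads, and for Bbc3, miR-221-3p and miR-222-3p had 121 and 9. The 4 most abundant miRNAs of the whole list belong to the miR-290 cluster, the stem cell cluster reported for the apoptosis genes Casp2 and Ei24. They were miR-294-3p (10.2% of reads), miR-291a-3p (9.16%), miR-292-3p (7.64%) and miR-295-3p (6.31%), and miR-25-3p came next at 1.01%.

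**Figure D2:**
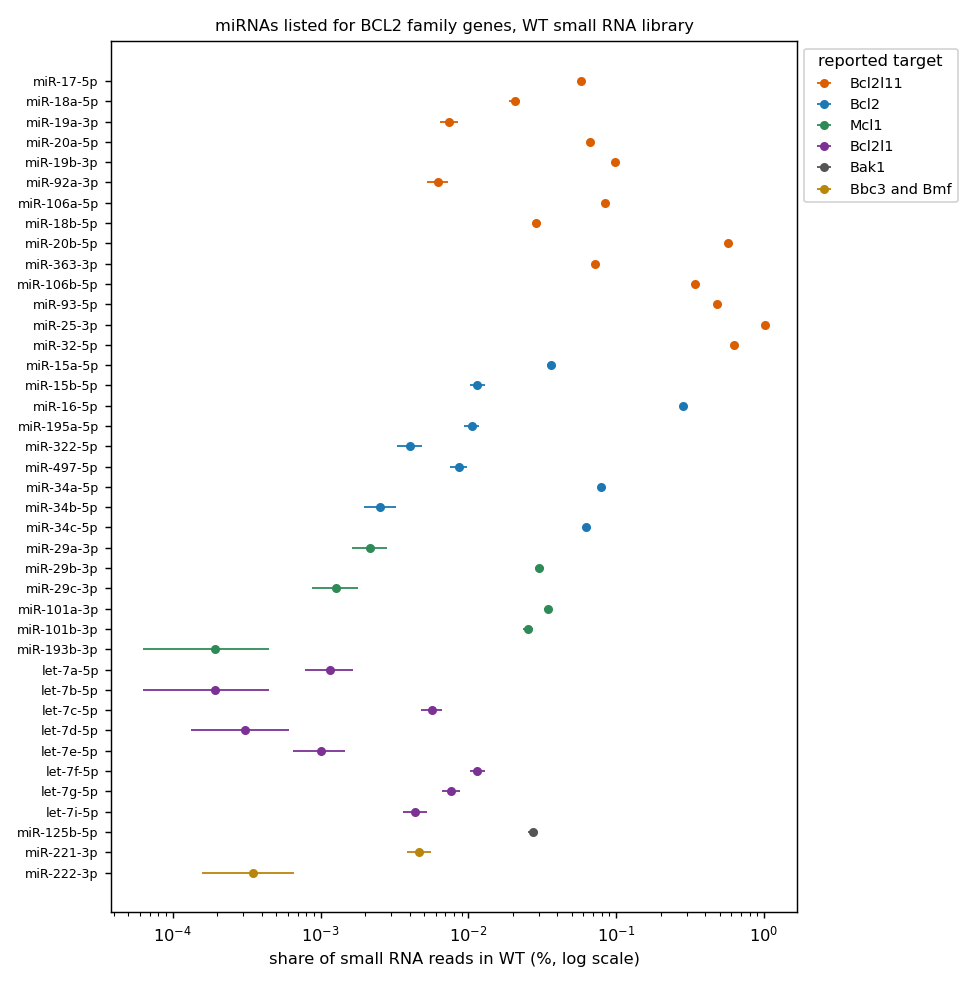
Share of all small RNA reads in the WT library, in percent on a log axis, for the 40 miRNAs listed for BCL2 family genes, coloured by reported target. Bars are exact 95% counting intervals of 1 library. The miRNAs listed for Bcl2l11 reach 1.01% (miR-25-3p), and let-7 members lie at 0.0115% or less.

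Among the anti-apoptotic genes, Bcl2l1 was higher in both knockouts. It had 313 counts in WT, 600 in Dgcr8-/- and 861 in Dicer-/- cells, or 31.5, 53.9 and 69.9 CPM. As with Bcl2l11, the 3 libraries are ordered WT, Dgcr8 knockout, Dicer knockout with no overlap of their intervals. The ratio to WT was 1.71 in Dgcr8-/- (1.49 to 1.97), short of the rule, and 2.22 in Dicer-/- cells (1.95 to 2.53). That second value is just inside it, with a log2 ratio of 1.13, and 1.02 under either other scaling. Bcl2l1 gives rise to long and short splice forms with opposite effects on survival, which 1 row cannot separate.

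Mcl1 encodes a short-lived protein whose mRNA was read deeply in all libraries. Its counts were 4845 in WT, 5039 in Dgcr8-/- and 7001 in Dicer-/- cells, at 487.8, 453.0 and 568.8 CPM. The Dgcr8 knockout was 1.08-fold below WT (1.04 to 1.12) and the Dicer knockout 1.17-fold above it (1.12 to 1.21). These differences exceed counting error and are far below 2-fold, and no measure of the spread between cultures is available to set beside them. Bcl2, the founding member, had 4, 8 and 11 counts (0.403, 0.719 and 0.894 CPM). Its ratios to WT, 1.79 (0.478 to 8.10) and 2.22 (0.657 to 9.55), leave a difference in either direction possible, so none was detectable at this depth.

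The effector genes differed in different libraries. Bax had 1668 counts in WT, 2590 in Dgcr8-/- and 3111 in Dicer-/- cells (167.9, 232.8 and 252.7 CPM). Both knockouts were above WT, by 1.39-fold (1.30 to 1.48) and 1.505-fold (1.42 to 1.60), and neither reached 2-fold. Bak1 had 661 counts in WT, 1417 in Dgcr8-/- and 800 in Dicer-/- cells, which is 66.6, 127.4 and 65.0 CPM. WT and the Dicer knockout overlap, with a ratio of 0.977 (0.880 to 1.08), and the Dgcr8 knockout stands above both. It was 1.91-fold the WT level (1.74 to 2.10) and 1.96-fold the Dicer knockout level (1.80 to 2.14). With a log2 ratio to WT of 0.93, Bak1 lay just outside the rule in the Dgcr8 knockout, where Bcl2l11 at 1.10 lay just inside.

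**Figure D3:**
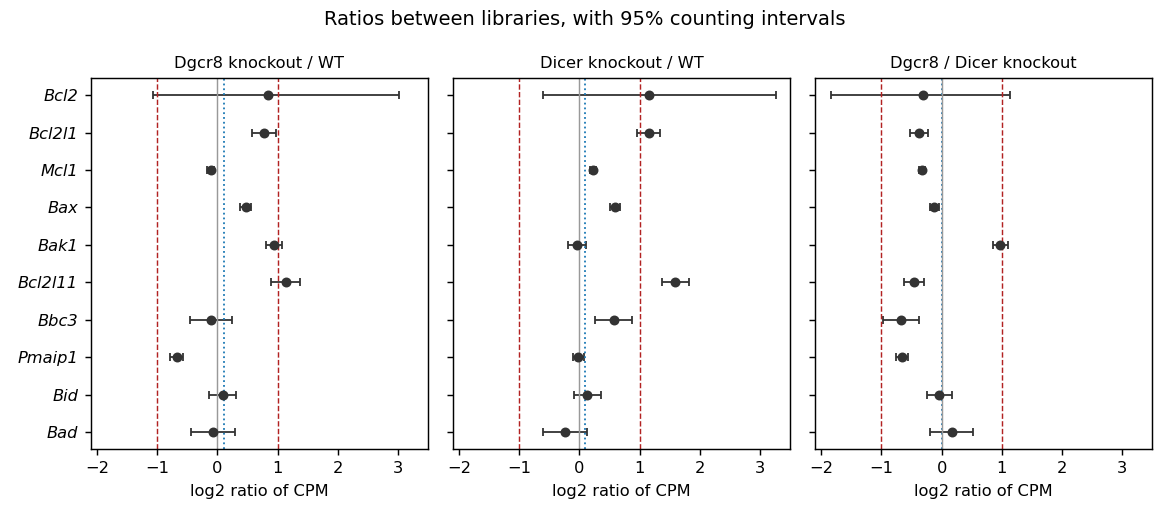
Log2 ratio of CPM between 2 libraries for each of the 10 genes, with exact 95% counting intervals, for the Dgcr8 knockout over WT, the Dicer knockout over WT, and the Dgcr8 over the Dicer knockout. Dashed lines mark 2-fold and the dotted line the median log2 ratio on the CPM + 1 scale of all genes tested. Bcl2l11 lies beyond the upper dashed line against WT in both knockouts, and Bak1 and Pmaip1 stand on opposite sides of 0 in the Dgcr8 knockout.

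Setting the knockouts side by side avoids the WT library that both earlier comparisons share. None of the 9 members was called higher in the Dgcr8 than in the Dicer knockout and none lower (0 and 0), where 4.15% and 5.05% of 12986 genes were (9.20% in all). For 6 members the Dgcr8 knockout was below the Dicer knockout beyond counting error: Bcl2l1, Mcl1, Bax, Bcl2l11, Bbc3 and Pmaip1. The share of all genes that differed beyond counting error was not counted, so these 6 are not read as a trait of the family. Bcl2l11 was 1.37-fold lower (1.23 to 1.54), Bbc3 1.59-fold lower (1.29 to 1.96), Bcl2l1 1.30-fold lower (1.17 to 1.44), Mcl1 1.26-fold lower (1.21 to 1.30) and Bax 1.09-fold lower (1.03 to 1.14). Bak1 was the 1 member above it beyond counting error, and Bid and Bad overlapped. The median log2 ratio of the 9 was -0.33, against 0.00 for all genes. Over all 3 libraries, 7 of the 10 genes had their highest CPM in the Dicer knockout, 2 in WT (Pmaip1 and Bad) and 1 in the Dgcr8 knockout (Bak1), though for Bcl2, Bid and Bad no neighbouring values differ beyond counting error. The same split over all genes was not counted, so the 7 are a description. Every row of the table has at least 10 counts in some library, and Bcl2 reached that only in the Dicer knockout, with 11.

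Ratios of 2 genes within a library do not depend on the scaling between libraries. The count ratio of Bcl2l11 to Mcl1, a BH3-only gene over an anti-apoptotic one, was 0.0419 in WT, 0.0990 in Dgcr8-/- and 0.108 in Dicer-/- cells. It was thus 2.36 times the WT ratio in Dgcr8-/- (1.99 to 2.81) and 2.59 times in Dicer-/- cells (2.20 to 3.05), while the knockouts overlapped with each other at 0.913 (0.810 to 1.03). Bbc3 to Bcl2l1 went the other way, from 0.447 in WT to 0.243 and 0.298. Relative to WT this ratio was 0.544 in Dgcr8-/- (0.412 to 0.719) and 0.667 in Dicer-/- cells (0.520 to 0.859). Bax to Bcl2 was 417 in WT, 323.8 in Dgcr8-/- and 282.8 in Dicer-/- cells, and with so few Bcl2 counts the intervals of its change, 0.171 to 2.90 and 0.157 to 2.29, hold 1. No single direction of BH3-only over anti-apoptotic mRNA was therefore seen across the pairs compared.

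Of 15 other BCL2 family genes listed, 12 had a row and levels are given as counts in the order WT, Dgcr8-/-, Dicer-/-. Hrk, a BH3-only gene known from neurons, had 71 counts in WT, 13 in Dgcr8-/- and 10 in Dicer-/- cells. It was 6.12-fold lower (3.36 to 12.0) and 8.80-fold lower (4.52 to 19.1). Bcl2l10, an anti-apoptotic gene known from oocytes, had 26 counts in WT, 1 in Dgcr8-/- and, from an empty cell, 0 in Dicer-/- cells. The first is 29.1-fold lower (4.78 to 1194) and the second at least 10.7-fold lower against a floor of 3 counts in that library, while the exact interval, which counts the error of the WT value too, has its lower limit at 8.13-fold. These 2 were the genes called lower in the Dgcr8 knockout among 11 tested, with 0 higher, where 8.02% of all genes were called lower and 14.3% higher. The anti-apoptotic gene Bcl2l2 (BCL-W) had 178, 102 and 98 counts and was called lower in the Dicer knockout, at a log2 ratio of -1.08. In the Dgcr8 knockout it stood at -0.90, and at -1.02 with median-ratio scaling, past the rule, as it also was with TMM.

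Bnip3, which encodes a mitophagy receptor induced by low oxygen, had 1052 counts in WT, 725 in Dgcr8-/- and 416 in Dicer-/- cells. WT was the highest library, and the Dicer knockout was 3.13-fold lower (2.80 to 3.52). In the Dicer knockout 4 of 12 genes were called lower (Hrk, Bcl2l10, Bnip3 and Bcl2l2) and 2 higher, against 9.70% and 16.0% of all genes. The latter were Bcl2l12, with 81, 145 and 268 counts and a ratio to WT of 2.67 (2.07 to 3.47), and Bcl2l14, with 28, 64 and 94 counts and a ratio of 2.71 (1.76 to 4.29). Bok, an effector-like member, had 164, 124 and 112 counts, and the BH3-only genes Bmf and Bik had 150, 189 and 143 counts and 26, 11 and 19. None of these 3 was called in either knockout. Bok was lower beyond counting error in both, by 1.48-fold in Dgcr8-/- (1.17 to 1.89) and 1.81-fold in Dicer-/- cells (1.42 to 2.33). Bik was 2.65-fold lower in Dgcr8-/- cells (1.26 to 5.94), but at -0.86 on the log2(CPM + 1) scale. Bmf was 1.30-fold lower in Dicer-/- cells (1.03 to 1.65). The intervals of Bik in Dicer-/- and of Bmf in Dgcr8-/- cells held 1. Bcl2l13 (450, 633 and 701 counts) and Bnip3l (1237, 1273 and 1434) were not called, and Bcl2l15 reached 1 CPM only in the Dicer knockout, with 2, 5 and 14 counts.

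**Figure D4:**
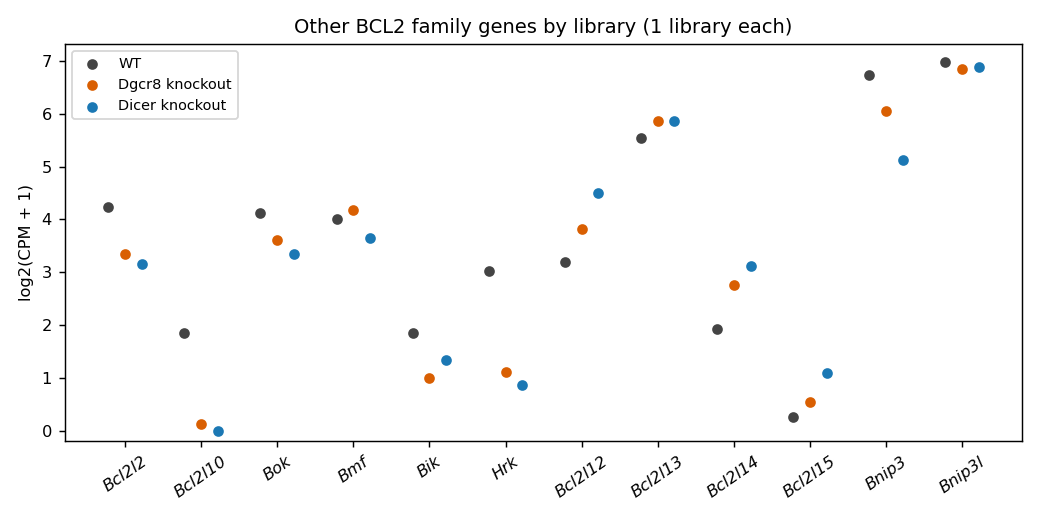
Levels of the 12 other BCL2 family genes with a row, as log2(CPM + 1), in the WT, Dgcr8 knockout and Dicer knockout libraries (1 library each, no error bars). Hrk, Bcl2l10, Bcl2l2 and Bnip3 are highest in WT, and Bcl2l12 and Bcl2l14 step up to the Dicer knockout.

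Downstream of the family, cytochrome c released from mitochondria assembles with APAF1 and caspase-9, and executioner caspases follow. Of 12 genes of release and the apoptosome, 0 were called in either direction in either knockout. Apaf1 had 328, 655 and 705 counts, at log2 ratios of 0.82 and 0.78, and the cytochrome c gene Cycs had 2179, 1505 and 2074 counts, at -0.69 and -0.38. Htra2, a mitochondrial protease gene, had 291, 643 and 349 counts. It followed the same order as Bak1, and its ratio between the knockouts, 2.04 (1.79 to 2.33), just reached the rule, with log2 ratios of 0.98 and 0.99 under median-ratio and TMM scaling, below the rule. Of 6 caspase genes tested, 1 was called higher and 1 lower in the Dicer knockout. Casp2, the higher one, had 149 counts in WT, 1011 in Dgcr8-/- and 823 in Dicer-/- cells, 6.06-fold (5.10 to 7.24) and 4.46-fold (3.74 to 5.34) the WT level. The executioner gene Casp6, with 157, 116 and 86 counts, was the lower one.

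Of 5 caspase inhibitor genes, 1 was called, Birc5 (survivin, which also acts in cell division), lower in the Dicer knockout. It had 2249, 1261 and 1152 counts, with log2 ratios of -0.99 and -1.27. The value in the Dgcr8 knockout passed the rule with median-ratio and TMM scaling, at -1.13 and -1.11. Among 7 death receptor genes, 2 were called higher in each knockout and 0 lower, where 14.3% (Dgcr8-/-) and 16.0% (Dicer-/-) of all genes were called higher. They were the adaptor gene Fadd, with 43, 198 and 150 counts, and the kinase gene Ripk1, with 55, 289 and 284 counts, which was 4.69-fold (3.51 to 6.38) and 4.17-fold (3.11 to 5.67) the WT level. Tradd, another adaptor gene, had 90, 173 and 75 counts and was called higher in the Dgcr8 than in the Dicer knockout, at 1.22. Cflar, the lowest of the list in the Dgcr8 knockout, had 468, 287 and 541 counts. It was 1.83-fold lower than WT there (1.57 to 2.12), short of the rule, and its Dicer knockout interval held 1. Tnfrsf10b, with 389, 322 and 402 counts, was below WT beyond counting error in both knockouts.

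Transcription of Bbc3, Pmaip1 and Bax is known to be induced by p53, and the p53 list holds Trp53, its relatives, its antagonists and other targets. Of 14 tested, 3 were called higher and 1 lower in each knockout, beside all-gene shares of 14.3% and 8.02% in Dgcr8-/- and 16.0% and 9.70% in Dicer-/- cells. Trp53 itself had 3283, 6025 and 7425 counts, at log2 ratios of 0.71 and 0.87. Its relative Trp73 had 10, 73 and 110 counts (1.91 and 2.31), and the stress gene Sesn2 had 369, 1125 and 1049 (1.42 and 1.18). The p53 antagonist gene Mdm4 was called in the Dgcr8 knockout (1.32) and Ei24 in the Dicer knockout (1.23), whereas Siva1, a proapoptotic gene, was lower in both (-1.65 and -1.32). The list's median log2 ratio was 0.30 in the Dgcr8 and 0.55 in the Dicer knockout, against 0.11 and 0.10 for all genes. The listed genes did not all rise: Mdm2 was at -0.44 and 0.08, and Zmat3 at -0.37 and -0.22. Of 15 regulators of transcription or turnover of the members, Ddit3, the stress factor gene CHOP that can induce Bcl2l11, was called lower in both, with 212, 79 and 65 counts, and Foxo3 was the 1 called higher, in the Dgcr8 knockout.

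Counted together, the 7 lists outside the 10 genes held 8 genes called higher and 4 lower of 70 tested in the Dgcr8 knockout, and 8 and 8 of 71 in the Dicer knockout. All genes gave 14.3% higher and 8.02% lower in the first and 16.0% and 9.70% in the second, so these shares of calls lie near the background. Their median log2 ratios, 0.12 and 0.09, lay beside the 0.11 and 0.10 of all genes. Between the knockouts 2 of 70 were called higher in the Dgcr8 knockout (Htra2 and Tradd) and 0 lower. Among 80 genes of all the lists, the profile over the 3 mRNA libraries closest to that of Bcl2l11 was that of Bcl2l14, at a Euclidean distance of 0.27 between centred log2(CPM + 1) values, followed by Bcl2l1 at 0.32. For Bcl2l1 the closest were Bcl2l14 at 0.05 and Trp53 at 0.20. With 3 libraries many genes can share such an order, and the distances are a description.

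**Figure D5:**
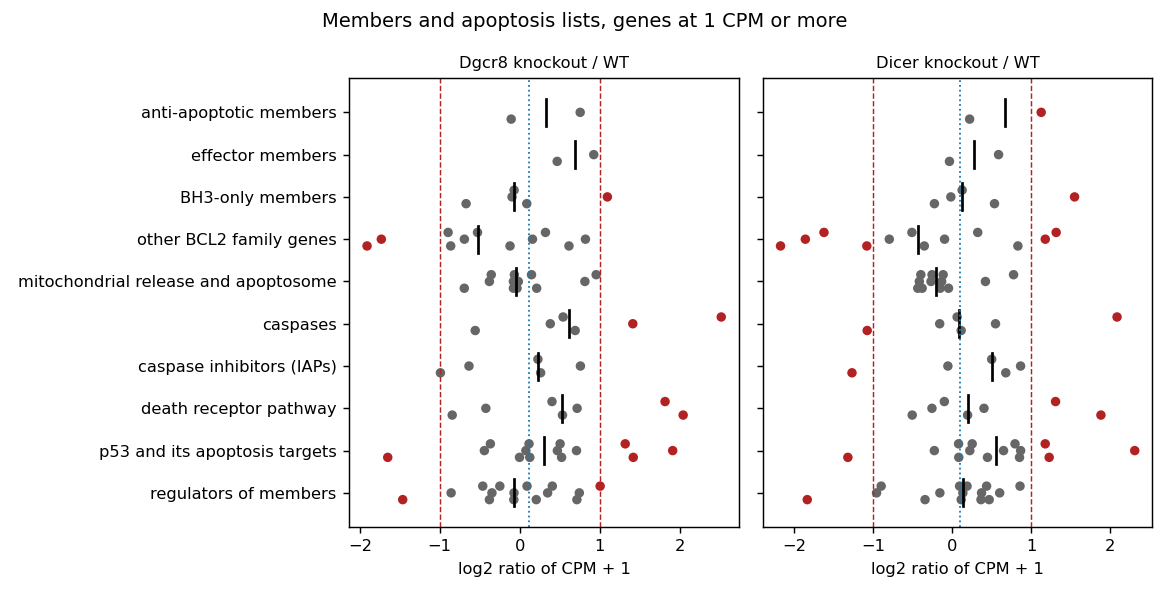
Log2 ratio of CPM + 1 to WT for the members in 3 classes and for the 7 other lists, in the Dgcr8 knockout (left) and the Dicer knockout (right). Each point is a gene that reached 1 CPM in either library, red where called at 2-fold (dashed lines). Black bars are list medians and the dotted line is the median of all genes. Caspase, death receptor and p53 lists hold the highest points, Casp2 at 2.52 and 2.08 among them, and the release and apoptosome genes all lie inside the dashed lines.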

How the data were processed

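mRNA counts per RefSeq entry and small RNA reads per mature miRNA are raw counts as the authors deposited them, read as such from their whole-number values. Per the submitters' processing notes, Bowtie and the mouse build mm9 were used. For the counting tool, the annotation and the use of strand, the sources used here give nothing. Libraries were poly(A)-selected and made with a stranded kit, per the labels' protocols.

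A cell left empty was taken as 0 (252 for WT, 221 for Dgcr8-/-, 138 for Dicer-/-). No row stays under 10 counts in all libraries, so rarer genes were not analysed here. Among genes with 2 to 9 counts, 69.6% (WT), 74.8% (Dgcr8-/-) and 69.7% (Dicer-/-) had an even number. If pairs of reads were counted as separate reads, intervals are too narrow; this was not tested. PCR reads are not independent molecules, so intervals and floors cover counting error only.

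CPM was taken over the table, and 1 CPM is 9.93, 11.1 and 12.3 counts. Ratios of CPM have exact conditional binomial intervals, ratios of ratios exact conditional intervals of the 2 x 2 table, and shares exact Clopper-Pearson intervals (scipy 1.17.1). The pseudocount was 1 CPM. Scripts were tested on simulated counts. Alternatives changed the pseudocount, floor, scaling (median-ratio, and TMM by edgeR 4.0.16), fold rule, rows sharing a symbol (there were 0) and the treatment of miRNAs.

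The 10 genes and all lists were chosen with earlier results of these data known. Named genes are the members, the other BCL2 family genes with a row, genes among the 2 highest or 2 lowest of each list and comparison, the 2 nearest profiles to each called member, the 5 most abundant listed miRNAs and the miR-17~92 cluster. Not all genes that this rule takes are given, 1 result is not reported here, and a few other miRNAs were named outside it after their values were seen. RefSeq sequences (GRCm38.p6) were matched by name, for 43 of 46 miRNAs and 9 of 10 members; coordinates are those of the printed promoter stretches in that build, and none are given for the mm9 counts.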

Additional observations from a re-analysis of the deposited data

How the results depend on the processing

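No library was left out and no paired analysis was possible because each group has 1 library. The 30 log2 ratios of the members (10 genes, 3 comparisons) moved by less than their counting interval with pseudocounts of 0.1 and 5 CPM. With TMM 6 of 30 and with median-ratio scaling 7 of 30 moved by more, and no called ratio changed sign.

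In the Dgcr8 knockout against WT, the number of members called higher went from 1 to 0 with a pseudocount of 5 CPM, median-ratio scaling, TMM scaling and a 4-fold rule, and to 3 (with Bcl2l1 and Bak1) with a 1.5-fold rule, which called 1 lower (Pmaip1). In the Dicer knockout it went from 2 to 0 with a 4-fold rule. Between the knockouts the 1.5-fold rule called 1 higher (Bak1) and 2 lower (Bbc3 and Pmaip1).

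Over all genes, a pseudocount of 5 CPM gave 1087 higher and 411 lower in Dgcr8-/-, 1232 and 591 in Dicer-/- cells, and 182 and 222 between the knockouts, where 0.1 CPM gave 849 and 1004. A floor of 5 CPM gave 696 lower in the Dgcr8 knockout and 415 lower between the knockouts. The 1.5-fold rule gave 3581 and 2345, 3759 and 2642, and 1642 and 1618, and the 4-fold rule 342 and 159, 539 and 233, and 63 and 114.

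Over the 7 pathway lists, a pseudocount of 5 CPM gave 5 higher and 2 lower in Dgcr8-/- cells, 5 lower in Dicer-/- cells and 0 higher between the knockouts, where 0.1 CPM gave 1 lower. Median-ratio and TMM scaling each gave 1 higher between the knockouts. The 1.5-fold rule gave 18 higher and 12 lower, 18 higher, and 6 and 6, and the 4-fold rule 2 and 0, 2 and 1, and 0 higher. Fewer genes pass a larger fold or pseudocount by construction.

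Leaving out the 10 most abundant miRNAs raised the share of those listed for Bcl2l11 to 16.0%, although miR-25-3p, the tenth, was left out too. Depth limits Bcl2 and the genes with fewer than about 30 counts most.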
